A study of Mus musculus with 20 samples.

Results

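The genes of this report are the mouse chemokines and chemokine receptors, taken from the deposited count tables by gene symbol (the Ccl, Cxcl, Cx3cl1 and Xcl1 ligands and the Ccr, Cxcr, Cx3cr1 and Xcr1 receptors). The rule gave 49 genes, 32 ligands and 17 receptors, of 20996 genes in either table. A symbol of the rule, Ccl27b, shares the Ensembl entry of Ccl27a and was not counted again. Of the 49, 37 were in the liver table and 47 in the adipose table, with 35 in both, 12 in the adipose table only and 2 (Cxcl11 and Cxcr1) in the liver table only. A mean of at least 0.5 CPM (counts scaled to library size, with TMM factors between libraries) was reached by 20 members in liver and 35 in adipose tissue. All 20 passed the filter on low counts in liver and 31 of the 35 in adipose tissue, the other 4 being Ccl21d, Ccl2, Cxcl1 and Cxcr6. The filter and the 0.5 CPM minimum select for members that are high in at least 1 group, so counts over the tested members do not describe all 49.

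The 4 groups were epididymal white adipose tissue (eWAT, the fat pad attached to the epididymis) of IR 4A mice, eWAT of WT mice, liver of IR 4A mice and liver of WT mice, with 5 messenger RNA libraries each. All mice were males aged 2 months. IR 4A is a form of the insulin receptor changed in its binding site for MAD2, a spindle checkpoint protein with a part in receptor endocytosis, and WT mice carry the unchanged receptor. The labels give neither the strain, the number of IR 4A alleles nor the animal behind a library, so p-values measure the spread between libraries. The comparisons ask how the IR 4A receptor bears on transcripts of each tissue, here those of the chemokine system.

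Chemokines are small secreted proteins that direct the movement of leukocytes along gradients, and their receptors are G protein-coupled receptors on the responding cells. CC and CXC ligands are named after the spacing of their first cysteines, and most ligands of the inflammatory type bind several receptors. In fat, Ccl2 and its receptor Ccr2 are known for the recruitment of monocytes that become adipose tissue macrophages. In liver, Cxcl1 recruits neutrophils, while Cxcl12 is made constitutively in many tissues and retains leukocytes and progenitors through Cxcr4.

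Libraries held 17989420 to 24238359 estimated counts in liver and 13651874 to 21615358 in eWAT. Liver libraries carried the hepatocyte markers (summed level of 62500 to 74400 CPM in IR 4A and 59400 to 70400 CPM in WT), and of the 6 adipocyte markers Adipoq, Lep and Retn had no entry in the liver table. The eWAT libraries carried adipocyte markers (1600 to 9300 CPM in IR 4A and 5280 to 17300 CPM in WT) and also 7 markers of epididymis, summed to 13100 to 20600 CPM in IR 4A and 3090 to 15200 CPM in WT. Spermatid markers exceeded 1000 CPM in 4 eWAT libraries (IR 4A 3, IR 4A 4, WT 1 and WT 2). In liver, summed acute phase genes stood at 6000 to 11200 CPM in IR 4A, against 61100 CPM in WT 1, 33500 CPM in WT 3 and 8900 to 11900 CPM in the other WT libraries. These libraries stand apart. Within each tissue, the counts of fold change signs and of unadjusted p under 0.05 over all tested members are given with and without them. Most other counts are given with all libraries. In tissue RNA, fewer cells of a type and less RNA per cell cannot be told apart.

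In eWAT, the chemokine transcripts with the smallest p in IR 4A against WT were the lymphatic chemokine Ccl21a, the macrophage chemokines Ccl6 and Ccl9, the epithelial chemokine Ccl28 and Cxcr5, a chemokine receptor of B cells. Each had a lower mean in IR 4A. No member passed an adjusted p of 0.05 by edgeR's quasi-likelihood F test with Benjamini-Hochberg adjustment, where 0.0121% of all genes tested (2 of 16476) passed. At an unadjusted p under 0.05 there were 12 of 31 members, all with negative log2 fold changes, against 15.9% of all genes tested (12 of 31 is 38.7%). Fold changes were negative for 26 of the 31 (83.9%) and for 59.9% of all genes, with a median log2 fold change of -0.65 over the members and -0.08 over all genes. Leaving out Ccl21b, a near-identical copy of Ccl21a, 25 of 30 (83.3%) were negative. DESeq2, run as an alternative, called 7 of 31 members at an adjusted p of 0.05, against 7.31% of all genes entered. Limma voom with sample weights called 1 of 31, against 0.473% of all genes, and a fit of all 20 libraries 3 of 30, against 2.01%.

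**Figure D1:**
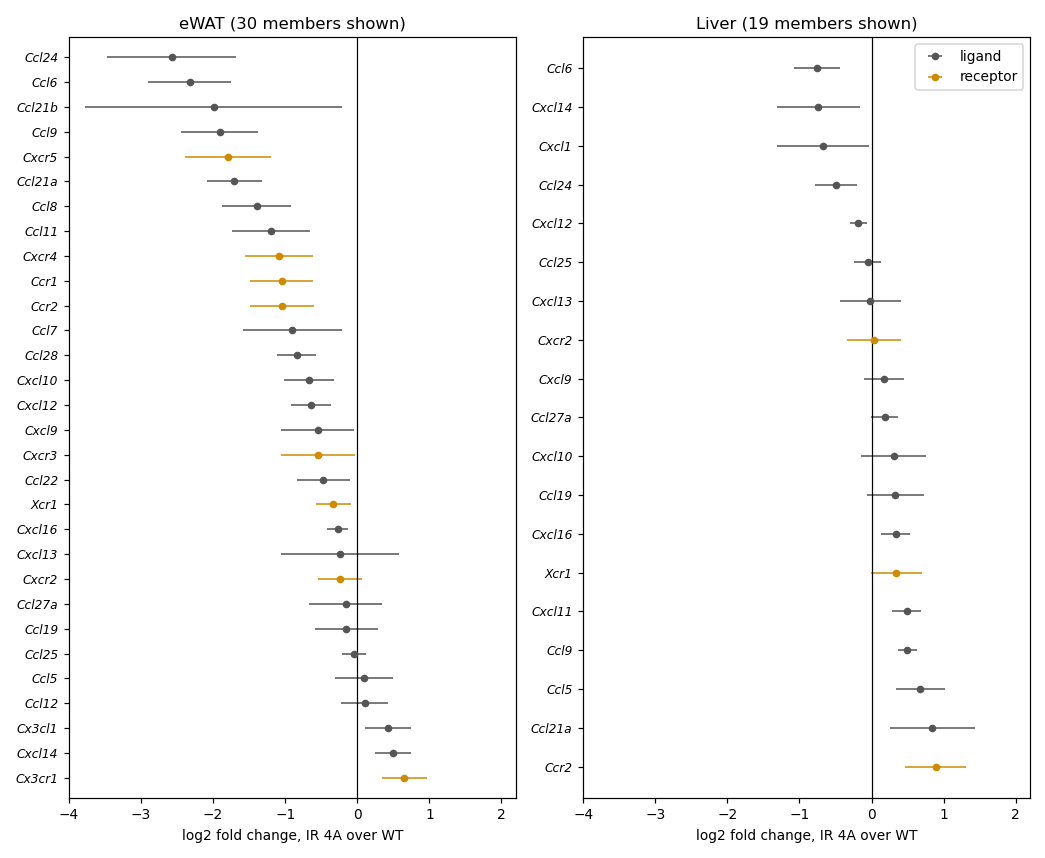
Log2 fold change of IR 4A over WT (horizontal axis) for 30 of the 31 tested members whose mean reached 0.5 CPM in eWAT (left) and 19 of the 20 in liver (right). Points are edgeR estimates, bars 1 standard error, with receptors in a second colour. In eWAT 25 of the 30 estimates shown lie below 0, and in liver 7 of the 19 do.

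These counts shifted with single libraries. Among the 35 members at 0.5 CPM, library WT 4 was the highest of the 10 eWAT libraries for 15, IR 4A 3 was the lowest for 13 and IR 4A 4 for 7. Without WT 4, 25 of 31 fold changes were negative (median -0.45, all genes -0.08), and the unadjusted p was under 0.05 for 6 members with lower and 1 with a higher level in IR 4A, against 11.7% of all genes. Without IR 4A 3 these counts were 25 negative and 7 lower, against 10.4% of all genes. Without the 4 libraries high in spermatid markers, 21 of 30 tested members were negative (median -0.42, all genes 0.01) and 6 were lower at an unadjusted p under 0.05, against 8.36% of all genes. With the epididymis marker level as a covariate, 26 were negative and 7 were lower, against 8.86% of all genes. Ccl21a, Ccl6, Ccl9 and Ccl8 were among those lower at an unadjusted p under 0.05 in each of these 4 fits.

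IR 4A and WT libraries did not overlap for 3 of the 31 members, Ccl21a, Ccl6 and Ccl9, where 5.74% of all genes tested did not overlap. Ccl21a encodes a chemokine of lymphatic vessels and lymphoid tissue that draws dendritic and T cells through Ccr7. Its level was 12.9, 16.7, 4.07, 5.76 and 11 CPM in the IR 4A libraries (replicates 1 to 5), against 37.2, 19.8, 31.2, 44.7 and 31.6 CPM in the WT libraries. Every WT library was above the highest IR 4A library, IR 4A 2. The means were 10.1 ± 5.19 CPM in IR 4A and 32.9 ± 9.14 CPM in WT (SD, n = 5 each). The edgeR log2 fold change was -1.71 (SE 0.38, adjusted p = 0.173). In the mouse, Ccl6 and Ccl9 encode CC chemokines of macrophages and other myeloid cells that bind Ccr1. Ccl6 stood at 15.4, 18.2, 3.03, 8.1 and 19.1 CPM in IR 4A libraries, against 33.8, 42.7, 58.4, 146 and 38.6 CPM in WT libraries. The WT 4 value lies far above the other WT values, and the lowest WT value is still above the highest IR 4A value. The log2 fold change was -2.32 (SE 0.57, edgeR adjusted p = 0.186), and -1.76 without WT 4 (adjusted p = 0.301). Ccl9 stood at 14.1, 14.8, 2.55, 7.38 and 12.8 CPM in IR 4A libraries, against 20.6, 25.9, 38.5, 84.5 and 24.3 CPM in WT libraries. The order of the libraries was much like that of Ccl6, with IR 4A 3 lowest and WT 4 highest. Its log2 fold change was -1.91 (SE 0.54, edgeR adjusted p = 0.21), and -1.40 without WT 4 (adjusted p = 0.352).

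Ccl6 and Ccl9 are neighbours in a cluster of CC chemokine genes on chromosome 11, and the 250 bases before their starts are shown because both had their lowest eWAT level in IR 4A 3 and their highest in WT 4. The sequences are from RefSeq (GRCm38.p6, while the authors' build was GRCm39), chr11:83578637-83578886 for Ccl9 and chr11:83593088-83593337 for Ccl6, both on the minus strand and written 5′ to 3′. Capitals mark matches, on either strand, to 3 kinds of motif: the NF-kappa-B consensus, AP-1 (TGANTCA) and the TATA box (TATAAA, also read as TTTATA on the other strand).
Ccl9: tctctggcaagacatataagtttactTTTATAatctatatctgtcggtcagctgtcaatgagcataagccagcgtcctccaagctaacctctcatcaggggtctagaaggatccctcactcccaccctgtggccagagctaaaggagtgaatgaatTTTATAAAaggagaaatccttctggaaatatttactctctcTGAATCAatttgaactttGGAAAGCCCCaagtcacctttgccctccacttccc
Ccl6: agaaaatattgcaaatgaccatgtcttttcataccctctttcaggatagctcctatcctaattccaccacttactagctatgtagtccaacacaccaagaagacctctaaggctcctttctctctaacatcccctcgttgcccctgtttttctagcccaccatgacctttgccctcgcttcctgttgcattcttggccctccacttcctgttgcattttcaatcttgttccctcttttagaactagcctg
The Ccl9 window held an NF-kappa-B match starting 35 bases before the start of the gene, an AP-1 match at 53 bases, and TATA letters at 94, 92 and 224 bases, the first 2 of which overlap. The Ccl6 window held no match to these motifs, nor to the interferon motifs GAS (TTCNNNGAA) and ISRE (the interferon-stimulated response element). Of 32851 windows of this length in the RefSeq table, 7.25% held the NF-kappa-B consensus, 6.75% AP-1, 12.4% TATAAA, 7.02% GAS and 2.98% ISRE. Of the 40 windows matched to members (36 of 49 genes), these were 7, 5, 9, 3 and 3 windows. Letters in a window are a description and not a site of binding.

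**Figure D2:**
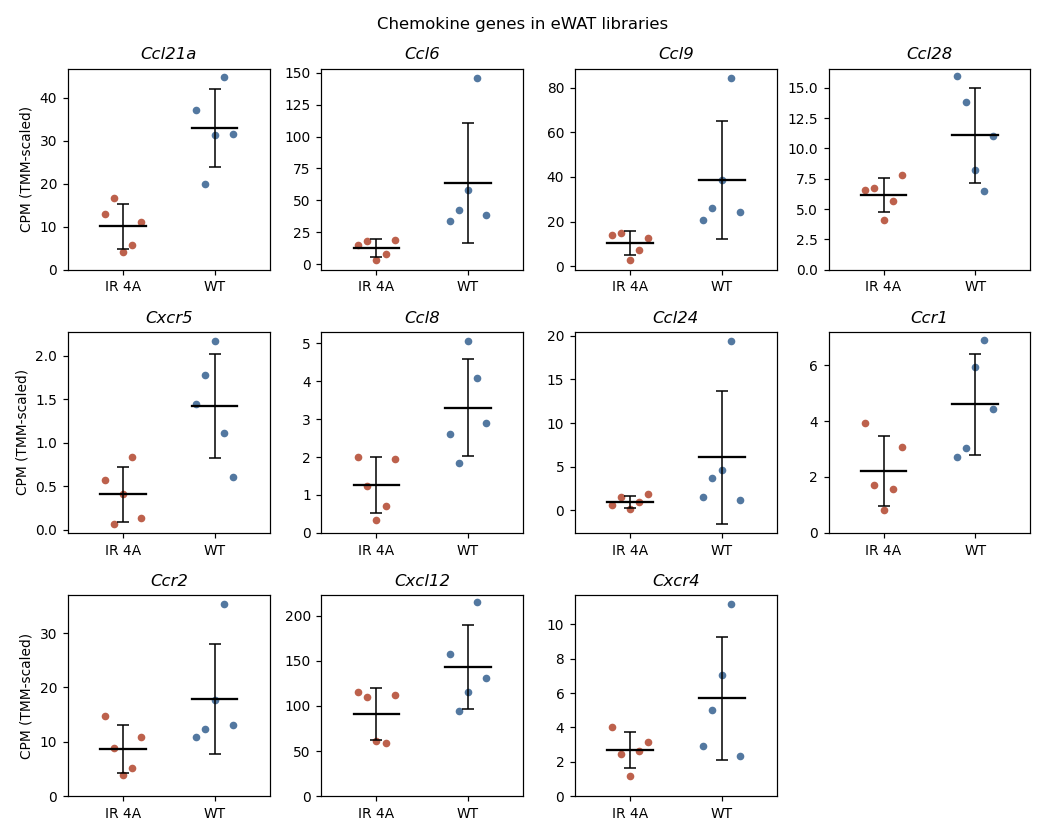
TMM-scaled CPM (vertical axes, linear, each from 0 or below 0 where the error bar reaches there) in the 5 IR 4A and 5 WT eWAT libraries for 11 of the members with an unadjusted p under 0.05. Points are libraries, horizontal lines means and bars SD. IR 4A and WT points do not overlap for Ccl21a, Ccl6 and Ccl9, and 1 WT library stands far above the rest for Ccl6, Ccl9 and Ccl24.

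Of the 7 monocyte-attracting CC ligands at 0.5 CPM in eWAT (Ccl2, Ccl5 to Ccl9 and Ccl12), 6 were tested. Of these, 4 had negative fold changes, where 59.9% of all genes tested did. Ccl6, Ccl8 and Ccl9 had an unadjusted edgeR p under 0.05, as did 15.9% of all genes. Ccl8 encodes a monocyte chemoattractant protein that in the mouse binds Ccr8. It stood at 2.01, 1.23, 0.345, 0.72 and 1.96 CPM in IR 4A libraries and at 2.62, 1.84, 5.07, 4.08 and 2.91 CPM in WT libraries. Only WT 2 lies among the IR 4A values (edgeR log2 fold change -1.40, SE 0.48, adjusted p = 0.239). Ccl7 and Ccl12, both ligands of Ccr2, had log2 fold changes of -0.90 (SE 0.69) and 0.10 (SE 0.32), and Ccl5, a ligand of Ccr1, had 0.09 (SE 0.41). The Ccl7 estimate rests on WT 3 (3.01 CPM, against 0.132 to 1.11 CPM in the other WT libraries), and was -0.011 without it (edgeR adjusted p = 0.992). Ccl2, the main ligand of Ccr2, was below the filter and ranged from 0.24 to 0.784 CPM in IR 4A and from 0.461 to 3.96 CPM in WT. Its values were high only in WT 3 (3.96 CPM) and WT 4 (2.67 CPM).

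Ligands of Ccr3 and Ccr4, which act on eosinophils and T helper cells, had negative fold changes for all 3 tested, where 59.9% of all genes did. Ccl24, the ligand eotaxin-2, stood at 0.573, 1.5, 0.138, 1.02 and 1.83 CPM in IR 4A libraries, against 1.5, 3.69, 4.6, 19.4 and 1.15 CPM in WT libraries. The groups overlap, and WT 4 carries most of the WT mean (edgeR log2 fold change -2.58, SE 0.89, adjusted p = 0.241, and -1.42 without WT 4, adjusted p = 0.461). Ccl11, eotaxin-1, averaged 10.2 ± 6.57 CPM in IR 4A and 23.3 ± 13.9 CPM in WT (SD, n = 5 each; log2 fold change -1.19, SE 0.55), and Ccl22 had -0.47 (SE 0.37).

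The homeostatic CC ligands all had negative estimates, 6 of 6 tested, where 59.9% of all genes were negative. The 6 include Ccl21a and its near-identical copy Ccl21b (-1.99, SE 1.78), which do not count as separate results. The estimates of Ccl19, Ccl25 and Ccl27a did not stay negative in all alternatives. Ccl19 was 0.34 without WT 4 and 0.45 with the epididymis covariate, Ccl27a was 0.42 without WT 2, and Ccl25 was 0.076 without WT 2. Ccl28, a chemokine of epithelia, stood at 6.59, 6.76, 4.07, 5.64 and 7.84 CPM in IR 4A libraries, against 16, 13.8, 8.19, 6.49 and 11 CPM in WT libraries. Here WT 4 was the lowest of the WT libraries, unlike for Ccl6 and Ccl9, and was the only WT library to overlap with IR 4A. The log2 fold change was -0.84 (SE 0.28, edgeR adjusted p = 0.233) and -0.98 without WT 4 (adjusted p = 0.281). Over 21 alternatives it ran from -1.035 to -0.264. The highest Ccl28 values were those of WT 1 and WT 2, which were high in spermatid markers. Without the 4 libraries high in these markers, Ccl28 was not among the members with an unadjusted edgeR p under 0.05. Ccl25, a chemokine of thymus and gut, had -0.04 (SE 0.17), Ccl19, the other ligand of Ccr7, -0.15 (SE 0.44) and Ccl27a, a chemokine known from skin, -0.16 (SE 0.51). Ccl27a was at 9.31, 9.83, 23.7, 23.2 and 8.69 CPM in IR 4A and at 19.3, 37.4, 9.61, 9.11 and 7.94 CPM in WT. The 4 highest values are those of the libraries high in spermatid markers, and the part of these cells in the Ccl27a level was not tested.

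Ccl21a has near-identical copies, among which reads may be divided. The coding sequence of Ccl21b in the GENCODE transcripts at hand (GRCm38, chromosome 4) is identical to Ccl21d and to Gm13304 over its 402 bases, and differs from Ccl21a at 2 of 402. The bases around these differences are shown, with the differing base in capitals and positions counted from the first base of the coding sequence, T84A and then C194T (Ccl21a base first).
Ccl21a, bases 54 to 114: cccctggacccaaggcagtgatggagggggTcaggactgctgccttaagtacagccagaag
Ccl21b, bases 54 to 114: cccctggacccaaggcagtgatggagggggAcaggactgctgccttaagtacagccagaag
Ccl21a, bases 164 to 224: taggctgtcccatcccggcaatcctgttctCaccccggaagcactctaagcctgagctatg
Ccl21b, bases 164 to 224: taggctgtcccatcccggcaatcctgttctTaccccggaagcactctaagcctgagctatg
In eWAT the estimated counts of Ccl21b and Ccl21d were never both above 0 in a library. Ccl21d had 189 and 215 counts in IR 4A 1 and IR 4A 2 and 546 and 604 in WT 1 and WT 4, where Ccl21b had 0. Ccl21b had 59, 59 and 136 counts in IR 4A 3, IR 4A 4 and IR 4A 5 and 234, 484 and 411 in WT 2, WT 3 and WT 5, where Ccl21d had 0. A fold change of either copy alone is therefore uncertain, as is that of Ccl21a to the extent that its reads were divided with them. The 3 copies added up gave 26.4, 31.4, 8.14, 9.3 and 19.9 CPM in IR 4A libraries, against 63.7, 35.2, 56.7, 75.1 and 56.5 CPM in WT libraries. The groups still did not overlap, and the log2 fold change of the sum was -1.60 (SE 0.39, edgeR adjusted p = 0.186).

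**Figure D3:**
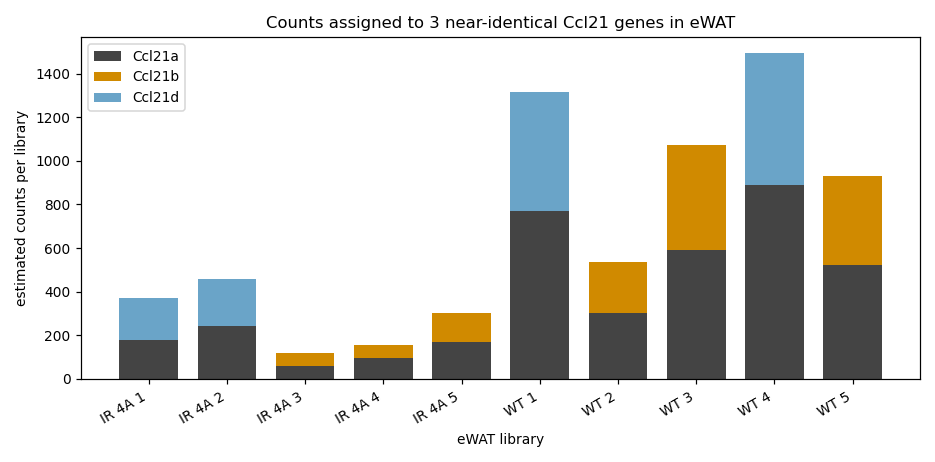
Estimated counts (vertical axis) assigned to Ccl21a, Ccl21b and Ccl21d in each eWAT library, stacked, with IR 4A libraries on the left and WT libraries on the right. Each library has counts for Ccl21b or for Ccl21d but not for both, while the added CPM range from 8.14 to 31.4 in IR 4A and from 35.2 to 75.1 in WT.

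Among CXC and transmembrane ligands of eWAT, Cxcl12 had the most scaled counts, 23.9 to 34.7% of the members' sum per library. It stood at 115, 110, 61, 58.4 and 112 CPM in IR 4A libraries, against 158, 94.5, 115, 215 and 131 CPM in WT libraries. IR 4A 3 and IR 4A 4 were the lowest and the other IR 4A libraries were within the range of WT (edgeR log2 fold change -0.65, SE 0.28, adjusted p = 0.298). Cxcl14, made by epithelial and stromal cells, and Cxcl13, the B cell chemokine, had 0.50 (SE 0.25) and -0.24 (SE 0.82). Cxcl9 and Cxcl10, ligands of Cxcr3 that interferon induces, had -0.55 (SE 0.51) and -0.67 (SE 0.35). Cx3cl1 encodes fractalkine, which is tethered to endothelial and other cells and also acts as a soluble ligand of Cx3cr1. It stood at 32.8, 35.4, 36.8, 41.8 and 45.3 CPM in IR 4A libraries and at 34.6, 19.7, 31.1, 11.4 and 46.6 CPM in WT libraries. The IR 4A values fell within the WT range (edgeR log2 fold change 0.42, SE 0.32, adjusted p = 0.539). Cxcl16, the transmembrane ligand of Cxcr6, averaged 10.8 ± 2.02 CPM in IR 4A and 13.1 ± 1.16 CPM in WT (SD, n = 5 each; log2 fold change -0.27, SE 0.15). Cxcl1 was below the filter, with 0.261 to 0.621 CPM in IR 4A and 0.364 to 1.11 CPM in WT.

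Among the CC receptors tested in eWAT, Ccr2 and Ccr1 had an unadjusted p under 0.05 and a negative fold change. Ccr2 is the receptor of inflammatory monocytes. It stood at 14.8, 8.87, 3.86, 5.16 and 10.8 CPM in IR 4A libraries, against 10.8, 12.4, 17.7, 35.4 and 13 CPM in WT libraries. The groups overlap, with WT 4 far above the others (edgeR log2 fold change -1.04, SE 0.44, adjusted p = 0.295, and -0.63 without WT 4, adjusted p = 0.543). Ccr1, a receptor of Ccl6 and Ccl9, stood at 3.94, 1.71, 0.828, 1.56 and 3.07 CPM in IR 4A libraries, against 2.72, 3.03, 5.92, 6.89 and 4.43 CPM in WT libraries. IR 4A 1 and IR 4A 5 were within the WT range (edgeR log2 fold change -1.05, SE 0.44, adjusted p = 0.292).

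Of the 5 CXC and CX3C receptors tested, 4 had negative fold changes, where 59.9% of all genes did. Cxcr2 was among these 4, but was 0.17 by voom. Cxcr5 directs B cells and follicular T cells towards Cxcl13. It stood at 0.573, 0.0682, 0.414, 0.84 and 0.131 CPM in IR 4A libraries, against 1.45, 1.78, 2.17, 1.11 and 0.606 CPM in WT libraries. WT 5 was the only WT library within the range of IR 4A (edgeR log2 fold change -1.79, SE 0.60, adjusted p = 0.236). Cxcr4, the receptor of Cxcl12, stood at 4.01, 2.46, 1.17, 2.64 and 3.14 CPM in IR 4A libraries, against 2.91, 5, 7.03, 11.2 and 2.36 CPM in WT libraries. WT 1 and WT 5 lay within the IR 4A range (edgeR log2 fold change -1.08, SE 0.47, adjusted p = 0.301). Cx3cr1, the fractalkine receptor of monocytes and macrophages, stood at 6.88, 7.37, 8.14, 6.96 and 5.81 CPM in IR 4A libraries, against 4.12, 4.48, 6.76, 1.71 and 5.27 CPM in WT libraries. Its order differed from that of Ccr2, with WT 4 lowest and IR 4A 3 highest (edgeR log2 fold change 0.65, SE 0.31, adjusted p = 0.338). Cxcr3 and Cxcr2 had -0.54 (SE 0.52) and -0.24 (SE 0.31), and Xcr1, a receptor of cross-presenting dendritic cells, had -0.33 (SE 0.24). Cxcr6 was below the filter, at 0.18 to 0.819 CPM in IR 4A and 0.182 to 1.11 CPM in WT.

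Levels per kilobase of the longest coding transcript allow a comparison between genes, apart from the Ccl21 copies, whose reads may be divided. Without these copies, the highest in IR 4A eWAT were Ccl27a (17.8 CPM per kb), Cxcl12 (16.2), Cx3cl1 (11.6), Ccl25 (10.6), Cxcl14 (9.94), Ccl11 (9.41) and Ccl6 (8.86). In WT eWAT they were Ccl6 (44.4 CPM per kb), Cxcl12 (25.4), Ccl11 (21.5), Ccl27a (19.8) and Ccl9 (12.9). The IR 4A mean of Ccl27a was raised by IR 4A 3 and IR 4A 4 (23.7 and 23.2 CPM, against 8.69 to 9.83 CPM in the others). The WT mean of Ccl6 was raised by WT 4 (146 CPM, against 33.8 to 58.4 CPM in the others). The order of the genes thus rests in part on these libraries. The copies, not placed in this order, had 11.6 CPM per kb in IR 4A (Ccl21a) and 37.8 (Ccl21a), 32.8 (Ccl21b) and 13.1 (Ccl21d) in WT. Of 34 ligand and receptor pairs listed from known binding, 14 had both partners at 0.5 CPM in eWAT. They include Ccl6 and Ccl9 with Ccr1, Cxcl12 with Cxcr4, Cx3cl1 with Cx3cr1 and Cxcl13 with Cxcr5.

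Markers of cell types known to make or carry these proteins also differed between the libraries. Macrophage markers (8 genes, 7 of them with negative fold changes) summed to 126 to 311 CPM in IR 4A eWAT and 361 to 1050 CPM in WT eWAT. Over all genes tested in eWAT, 59.9% of fold changes were negative. Monocyte markers, which include Ccr2, summed to 113 to 256 CPM in IR 4A and 309 to 1590 CPM in WT, with 4 of 6 fold changes negative. Fn1, the fibronectin gene, was much of that sum (25.6 to 136 CPM in IR 4A and 200 to 1380 CPM in WT), while Plac8 had the opposite order without overlap (56.7 to 78.9 CPM in IR 4A and 13.7 to 51.8 CPM in WT). B cell markers (all 5 tested negative) summed to 3.34 to 8 CPM in IR 4A and 9.46 to 31.7 CPM in WT, beside the values of Cxcr5. Lymphatic markers, which include Ccl21a itself, summed to 55.4 to 92.9 CPM in IR 4A and 127 to 200 CPM in WT, with 5 of 6 fold changes negative. The sums of these 4 lists did not overlap between the groups, with WT 4 the highest and IR 4A 3 the lowest for macrophage, monocyte and lymphatic markers. Nor did the sums of the progenitor, mesothelium, Kupffer cell and sinusoidal endothelium lists overlap. Progenitor markers (all 7 negative) summed to 512 to 909 CPM in IR 4A and 1050 to 2090 CPM in WT. Mesothelium markers summed to 154 to 208 CPM in IR 4A and 216 to 256 CPM in WT, with 4 of 6 fold changes negative and 2 positive. The Kupffer cell list (all 5 tested negative) summed to 5.93 to 27.2 CPM in IR 4A and 31.5 to 91.2 CPM in WT. C6 was a large part of it (3.65 to 18.3 CPM in IR 4A and 12.2 to 34 CPM in WT). The sinusoidal endothelium list (all 4 tested negative) summed to 106 to 151 CPM in IR 4A and 152 to 317 CPM in WT. T cell markers overlapped, at 5.59 to 9.28 CPM in IR 4A and 4.27 to 10.7 CPM in WT, as did endothelial markers, at 122 to 555 CPM in IR 4A and 393 to 1180 CPM in WT. The stellate cell list, also stromal, overlapped at 246 to 638 CPM in IR 4A and 398 to 770 CPM in WT. The sums of neutrophil, dendritic cell, natural killer cell, adipocyte, hepatocyte, epididymis and spermatid markers overlapped too. The part of these cells, or of epididymis RNA, in the chemokine values was not tested.

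**Figure D4:**
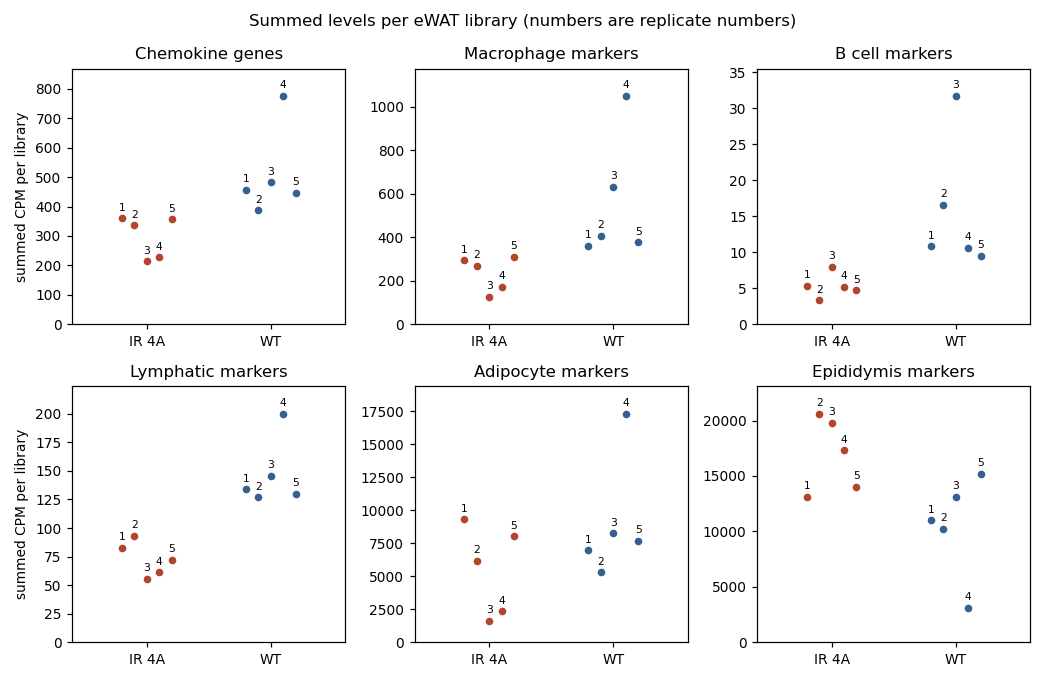
Summed TMM-scaled CPM (vertical axes, from 0) per eWAT library, IR 4A left and WT right, for the chemokine genes and for marker lists of macrophages, B cells, lymphatic vessels, adipocytes and epididymis. Numbers beside the points are replicate numbers. The chemokine sums range from 214 to 360 CPM in IR 4A and from 387 to 776 CPM in WT, and WT 4 is the highest for chemokine, macrophage, lymphatic and adipocyte sums and the lowest for epididymis.

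In liver, the member with the smallest p was Ccl9, at a higher mean in IR 4A. By edgeR with Benjamini-Hochberg adjustment no member of 20 passed, where 0.00805% of all genes tested (1 of 12421) passed. At an unadjusted p under 0.05 there were 3 members (15%), Ccl9 and Cxcl11 higher and Ccl6 lower, against 18.1% of all genes tested. No member was free of overlap between the groups, against 3.51% of all genes. Fold changes were positive for 13 and negative for 7, with a median log2 fold change of 0.21 over the members and 0.01 over all genes, of which 49% were negative. DESeq2 called 1 of 20 members, Ccl9 (adjusted p = 0.0404), against 3.43% of all genes entered, a share near that of the members. Voom called no member, against 0.0322% of all genes. Without WT 1 and WT 3, the libraries high in acute phase genes, 13 fold changes were again positive and 2 members, Ccl9 and Cxcl11, had an unadjusted p under 0.05, against 12.8% of all genes.

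Among the monocyte-attracting CC ligands of liver, Ccl9 stood at 43.4, 48.6, 67.8, 68.8 and 58.1 CPM in IR 4A libraries, against 45.9, 44.7, 35.5, 42.5 and 34.6 CPM in WT libraries. IR 4A 1 lay within the WT range and the other 4 IR 4A libraries above it (57.3 ± 11.3 CPM in IR 4A and 40.6 ± 5.24 CPM in WT, SD, n = 5 each). The log2 fold change was 0.50 (SE 0.14, edgeR adjusted p = 0.14). Ccl6 stood at 2.9, 6.68, 3.5, 4.01 and 3.53 CPM in IR 4A libraries, against 13.2, 4.25, 7.15, 4.5 and 5.73 CPM in WT libraries. Its highest value was that of WT 1, and IR 4A 2 lay within the WT range (edgeR log2 fold change -0.76, SE 0.32, adjusted p = 0.249). Ccl5 stood at 0.446, 0.552, 0.941, 0.848 and 0.527 CPM in IR 4A libraries and at 0.393, 0.442, 0.25, 0.679 and 0.349 CPM in WT libraries. The groups overlap through WT 4 (edgeR log2 fold change 0.67, SE 0.34, adjusted p = 0.316). Ccl24 stood at 0.446, 1, 0.978, 0.471 and 0.633 CPM in IR 4A libraries and at 0.841, 0.883, 1.05, 1.3 and 0.947 CPM in WT libraries, with IR 4A 2 and IR 4A 3 within the WT range (edgeR log2 fold change -0.49, SE 0.29, adjusted p = 0.393).

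Cxcl12 took 63.4 to 78.7% of the scaled counts of all members in liver libraries. It stood at 243, 266, 245, 248 and 265 CPM in IR 4A libraries, against 347, 278, 339, 235 and 240 CPM in WT libraries. The high WT values are those of WT 1 and WT 3 (edgeR log2 fold change -0.18, SE 0.12, adjusted p = 0.429, and 0.01 without these libraries). Cxcl1, the neutrophil chemokine, stood at 14.5, 37.3, 11, 6.41 and 7.38 CPM in IR 4A libraries and at 61.5, 8.72, 14.3, 32.6 and 5.53 CPM in WT libraries. WT 1, the library with the highest acute phase sum, also had the highest Cxcl1 value, while IR 4A 2 and WT 4 were high without such a sum (edgeR log2 fold change -0.68, SE 0.64, adjusted p = 0.603).

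The interferon-induced CXC ligands Cxcl9, Cxcl10 and Cxcl11 all had positive estimates in liver, but without WT 1 and WT 3 those of Cxcl9 and Cxcl10 turned to -0.16 and -0.26. Cxcl11 stood at 2.32, 2.56, 3.72, 3.63 and 3.74 CPM in IR 4A libraries, against 2.47, 1.93, 3.05, 1.79 and 2.14 CPM in WT libraries. IR 4A 3, IR 4A 4 and IR 4A 5 lay above all WT libraries (edgeR log2 fold change 0.49, SE 0.21, adjusted p = 0.252). Cxcl9 stood at 12.5, 14.4, 13.2, 17 and 11.1 CPM in IR 4A libraries and at 8.19, 17.4, 6.75, 20.1 and 8.37 CPM in WT libraries. The WT libraries spread on both sides of IR 4A (edgeR log2 fold change 0.17, SE 0.28, adjusted p = 0.785), and Cxcl10 had 0.31 (SE 0.45). Cxcl16 stood at 3.48, 6.03, 6.13, 5.7 and 4.53 CPM in IR 4A libraries and at 3.59, 3.2, 3.75, 4.26 and 5.73 CPM in WT libraries, with overlap (edgeR log2 fold change 0.33, SE 0.20, adjusted p = 0.396). Ccl25, Ccl27a, Ccl19, Ccl21a, Cxcl13 and Cxcl14 had adjusted p between 0.473 and 0.988.

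Receptors were scarce in liver, where Ccr2, Xcr1 and Cxcr2 were among the few to reach 0.5 CPM. Ccr2 stood at 0.758, 1.31, 1.28, 1.6 and 2 CPM in IR 4A libraries, against 0.617, 0.442, 0.6, 1.79 and 0.349 CPM in WT libraries. WT 4 was the only WT library within the IR 4A range (edgeR log2 fold change 0.89, SE 0.43, adjusted p = 0.294). Macrophage markers in liver summed to 52.9 to 167 CPM in IR 4A and 71.5 to 125 CPM in WT, and Kupffer cell markers to 394 to 512 CPM in IR 4A and 435 to 545 CPM in WT. The gene C6 was most of the Kupffer sum (307 to 401 CPM in IR 4A and 340 to 416 CPM in WT), so this sum says little of the other markers. Xcr1 stood at 0.357, 0.753, 1.09, 1.18 and 0.58 CPM in IR 4A libraries and at 0.785, 0.663, 0.55, 0.37 and 0.747 CPM in WT libraries. Cxcr2 stood at 0.714, 0.753, 0.752, 0.848 and 0.474 CPM in IR 4A libraries and at 1.01, 1.05, 0.25, 0.802 and 0.399 CPM in WT libraries. For both receptors the groups overlap widely (edgeR adjusted p = 0.638 for Xcr1 and 0.974 for Cxcr2).

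Per kilobase, Cxcl12 (45.1 CPM per kb in IR 4A and 51.1 in WT) was the highest member of liver in both groups. Ccl9 (19.1 in IR 4A and 13.5 in WT) and Cxcl1 (16.1 in IR 4A and 25.7 in WT) came next. Of the 34 pairs, 2 had both partners at 0.5 CPM in liver, among them Cxcl1 with Cxcr2. Cxcr4, the receptor of Cxcl12, had a mean of 0.339 CPM and Ccr1 0.154 CPM. Below 0.5 CPM in liver were also Ccl21b, Cx3cl1, Cx3cr1, Ccl2, Ccr9, Cxcr3, Cxcr6, Cxcl2, Ccl22, Cxcr5, Ccl28, Ccl3, Cxcr1, Xcl1 and Ccr4. In eWAT these were Ccl17, Ccr9, Ccr7, Ccr4, Ccr6, Xcl1, Ccl3, Ccr3, Ccl4, Ccr10, Cxcl5 and Cxcl2. Ccr7, the receptor of Ccl21a, was thus below 0.5 CPM in eWAT, with a mean of 0.362 CPM.

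Whether the IR 4A change differed between the tissues was tested as the interaction in a fit of all 20 libraries, given as eWAT minus liver. Of 30 members tested 1 passed, Ccl9, where 2.41% of all genes tested (354 of 14696) passed, a share near that of the members. On the scale of all 20 libraries, Ccl9 averaged 6.8 ± 3.36 CPM in IR 4A eWAT and 25.3 ± 16.7 CPM in WT eWAT, and 96.6 ± 19.5 CPM in IR 4A liver and 66.9 ± 8.51 CPM in WT liver (SD, n = 5 each). The difference was -2.43 on the log2 scale (SE 0.53, edgeR adjusted p = 0.029). It stayed between -2.58 and -1.84 over 28 alternatives, but the adjusted p ran from 0.00133 to 0.114. The call was lost without liver IR 4A 3 (adjusted p = 0.0647), IR 4A 4 (0.0596) or IR 4A 5 (0.0529), without eWAT IR 4A 4 (0.0579) and without both liver WT 1 and WT 3 (0.0722).

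The next members by p did not pass, namely Ccl21a at -2.58 (SE 0.72, edgeR adjusted p = 0.0587), Ccr2 at -1.95 (SE 0.63, adjusted p = 0.0865), Ccl28 at -2.26 (SE 0.78, adjusted p = 0.102) and Cxcl16 at -0.63 (SE 0.25, adjusted p = 0.157). Ccl28 rests on few counts in liver, where it averaged 0.31 ± 0.204 CPM in IR 4A and 0.109 ± 0.118 CPM in WT (SD, n = 5 each). Estimates were negative for 29 of 30 members (median -1.005) and for 60.8% of all genes (median -0.12), with Cxcl14 the exception at 1.22 (SE 0.68). Ccl9 had log2 fold changes of -1.91 in eWAT and 0.50 in liver, while Ccl6, its neighbour, had -2.32 in eWAT and -0.76 in liver (difference -1.58, SE 0.66, edgeR adjusted p = 0.168). The liver estimate of Ccl6 ran from -0.999 to -0.235 over 20 alternatives. Its highest WT liver values were those of WT 1 and WT 3 (13.2 and 7.15 CPM), the libraries high in acute phase genes.

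**Figure D5:**
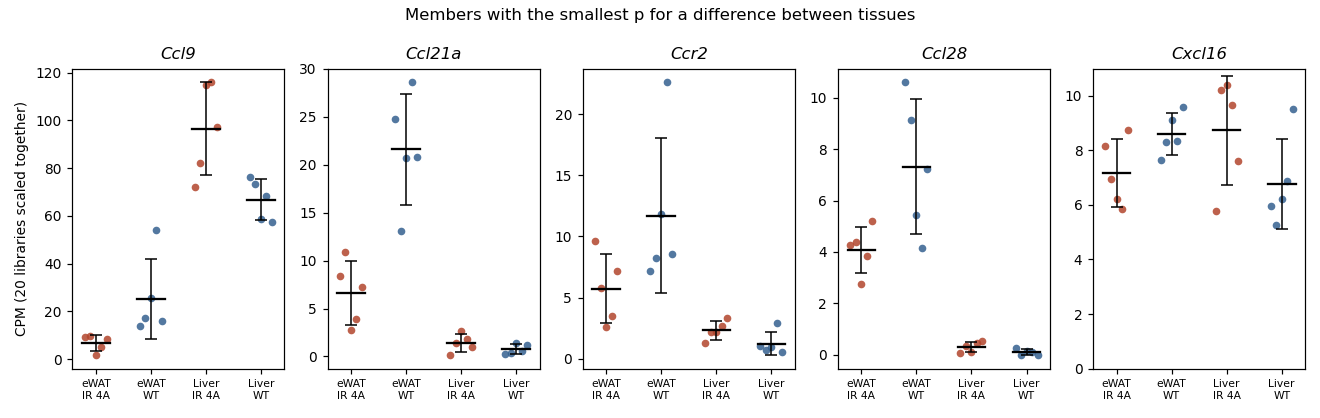
CPM with all 20 libraries scaled together (vertical axes, linear) for Ccl9, Ccl21a, Ccr2, Ccl28 and Cxcl16, in eWAT IR 4A, eWAT WT, liver IR 4A and liver WT. Points are libraries, horizontal lines means and bars SD. Ccl9 is lower in IR 4A than in WT eWAT (means 6.8 and 25.3 CPM) and higher in IR 4A than in WT liver (96.6 and 66.9 CPM).

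Between the tissues of WT mice, 12 of 30 members were higher in eWAT (43.2% of all genes tested were) and 4 were lower (33.9% of all genes were). Those with the smallest p were Cx3cl1, with 18.9 ± 9.07 CPM in WT eWAT and 0.515 ± 0.297 CPM in WT liver (edgeR log2 fold change 5.17, SE 0.41, adjusted p = 1.07e-09), and Ccl28 (6.001, SE 0.56, adjusted p = 1.02e-08). Ccl21a was also higher in eWAT (4.79, SE 0.56, edgeR adjusted p = 2.22e-07). Cxcl12 was lower in eWAT, with 93.6 ± 29.2 CPM against 475 ± 91.1 CPM in liver (edgeR log2 fold change -2.34, SE 0.22, adjusted p = 1.26e-08). Cxcl1 was lower in eWAT too, with 0.526 ± 0.215 CPM against 40.4 ± 38.3 CPM in liver (-6.23, SE 0.71, edgeR adjusted p = 1.59e-07). Because the tissues share no scale but that of the 14696 genes in the fit, these differences are relative to the bulk of those genes.

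The 250 bases before the Cxcl1 start are shown because Cxcl1 had the largest difference by size among the 30 members in this fit (RefSeq, GRCm38.p6, chr5:90890995-90891244, plus strand), with the NF-kappa-B matches in capitals.
Cxcl1: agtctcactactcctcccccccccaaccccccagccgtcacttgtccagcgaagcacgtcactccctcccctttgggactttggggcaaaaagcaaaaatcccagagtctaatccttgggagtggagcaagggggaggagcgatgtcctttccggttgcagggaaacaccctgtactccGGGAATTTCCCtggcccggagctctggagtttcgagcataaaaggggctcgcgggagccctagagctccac
The window held 2 overlapping matches, starting 71 and 70 bases before the start, and no AP-1, GAS, ISRE or TATAAA match.

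Other genes of the chemokine system were read from lists of atypical receptors, platelet and related ligands, signalling proteins and inducers. None passed in either tissue by edgeR after adjustment over all genes. In eWAT, 5 of the 6 scavenging and other atypical receptors tested had negative fold changes. Over all genes tested in eWAT 59.9% were negative, the share to set beside this and the eWAT counts below. Ackr2, which removes inflammatory CC chemokines, averaged 0.739 ± 0.357 CPM in IR 4A and 3.16 ± 1.99 CPM in WT (SD, n = 5 each). Its groups did not overlap, as for 5.74% of all genes tested (edgeR log2 fold change -2.09, SE 0.44, adjusted p = 0.164). Of 25 signalling genes tested in eWAT 20 were negative, and Dock2, which activates Rac in migrating leukocytes, had -1.32 (SE 0.33, edgeR adjusted p = 0.188). Pf4, the platelet chemokine Cxcl4, had -1.34 (SE 0.39, edgeR adjusted p = 0.217), and of 12 inducers 10 were negative. In liver 20 of 26 signalling genes were positive and 6 negative, where 49% of all genes tested were negative. The Src kinase Lyn had 0.21 (SE 0.06, edgeR adjusted p = 0.155). Ackr4, which removes Ccl19 and Ccl21, had 0.54 in liver (SE 0.43, edgeR adjusted p = 0.524), and Tnfrsf1a, a receptor of tumour necrosis factor, had -0.45 (SE 0.16, edgeR adjusted p = 0.198). The liver list of platelet and related ligands had 1 tested gene, Mif, at -0.02 (SE 0.12).

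The authors' deposited table of DESeq2 results gave an adjusted p under 0.05 for 1 of 19 members in liver and 3 of 31 in eWAT, against 2.5% and 2.7% of all genes. In liver the member was Ccl9, with a log2 fold change of 0.71 (SE 0.16, adjusted p = 0.00174 in the authors' deposited table). In eWAT the authors' deposited table had Ccl21a at -1.72 (SE 0.40, adjusted p = 0.00361), Ccl6 at -2.25 (SE 0.57, adjusted p = 0.00847) and Ccl9 at -2.33 (SE 0.65, adjusted p = 0.0215). The labels do not state the direction of its fold changes, and signs in the authors' deposited table were those of the edgeR fit for 88.7% of liver genes and 93% of eWAT genes.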

How the data were processed

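Messenger RNA was sequenced in 20 libraries, 5 per group. Per the labels, RNA was selected by its poly-A tail, all libraries were prepared together with a kit that keeps the strand, and reads were pairs of 100 bases. The submitters' processing notes name Salmon 1.8.0, DESeq2 1.32.0 and, as the genome build, GRCm39, without settings. The deposited counts are estimates per gene, that is, expected counts which the authors rounded to whole numbers. The authors' deposited result tables, per the file headers, give a mean signal, a log2 fold change with its error, a test score and p-values. The deposited normalized tables, on a log2 scale, were not used.

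Members were taken by symbol, and repeated Ensembl entries were dropped (83 in liver, 208 in eWAT). Low genes were removed with filterByExpr (edgeR 4.0.16, count of 10, total of 15) and libraries scaled by TMM. Within each tissue, the effect of IR 4A was tested by a two-sided quasi-likelihood F test of edgeR. Benjamini-Hochberg adjustment ran over all genes tested, with a threshold of 0.05 (R 4.3.3). The fits across tissues used 14696 of the 15350 genes shared by both tables. The tests were checked on simulated data. Spread between libraries, as the common coefficient of variation beyond counting error, was 0.187 (liver) and 0.512 (eWAT). Depth limits the precision of members near 0.5 CPM in addition.

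Alternatives were other scalings and filters, DESeq2 1.42.0, limma voom (limma 3.58.1), a robust prior, a replicate block, a fit of all 20 libraries, leaving out each library and, in the liver fit, WT 1 and WT 3 together. Chosen after seeing the data were leaving out eWAT libraries that stand apart, or liver WT 1 and WT 3 in the fit across tissues, an epididymis covariate and added Ccl21 copies. Values of every library are given for the 8 members with the smallest p in each tissue, for those whose groups do not overlap, and for the 4 ligands and 4 receptors with the highest mean. For the comparisons of tissues the 5 members with the smallest p are named. Some genes that these rules select are not reported here. The members, lists and tests were chosen with earlier results of these data known. No 2 libraries of a group were alike within sampling noise (lowest chi-square over its degrees of freedom 12.8, 20 pairs in each tissue). Transcript lengths and coding sequences are from GENCODE on GRCm38, and promoters from RefSeq on GRCm38.p6.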

Additional observations from a re-analysis of the deposited data

Results flagged for a closer look

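Within a group of 5 libraries, 9 values stood apart from the other 4 by a gap that is large relative to the range of the group. With 110 groups of values checked, a share of 5% would give about 5.5. That share holds for independent, normally distributed values. Here genes share libraries, so 5.5 is no measure of chance for these values. In eWAT the WT 4 library was the high one for Ccl6 (146 CPM), Ccl9 (84.5 CPM), Ccl24 (19.4 CPM), Ccr2 (35.4 CPM), Ccl11 (48.1 CPM) and Ccl19 (6.44 CPM), and IR 4A 4 was high for Cxcl10 (1.38 CPM). In liver, IR 4A 2 was high for Cxcl1 (37.3 CPM) and WT 4 for Ccr2 (1.79 CPM).

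The IR 4A change of Ccl9 differed between the tissues, by -2.43 on the log2 scale (eWAT minus liver, SE 0.53, edgeR adjusted p = 0.029 for the interaction). This call ends when some single libraries are left out. It was 1 of 30 members, near the share over all genes tested (2.41%).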

How the results depend on the processing

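The estimates kept their sign and side of the threshold in 376 of 394 values for liver, 609 of 643 for eWAT and 129 of 140 for the difference between tissues. As no member passed in the main liver or eWAT fit, the side there could change only by a new call. The sizes could move within these counts. For eWAT Ccl24 the log2 fold change ran from -2.90 to -1.14. The number of members called was more sensitive. In liver it was 1 by DESeq2 and 0 otherwise. In eWAT it was 7 by DESeq2, 1 by voom and 3 in the fit of all 20 libraries, and 0 in the other alternatives, with any single library left out included. For the difference between tissues it was 4 by DESeq2, 0 with the replicate block, 0 without liver WT 1 and WT 3, and 0 to 2 with a library left out (2 without liver WT 4, when Ccr2 passed as well, and without liver IR 4A 1, when Ccl21a did). Between the tissues of WT mice all alternatives stayed within 1.5 times the 16 members called.

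Over all genes, liver calls (1) became 426 by DESeq2, 4 by voom, 3 with the replicate block, 49 in the fit of all 20 libraries, 18 at an adjusted p under 0.1, 0 without WT 1 and WT 3, and 0 to 143 with a library left out, 143 without IR 4A 1. The eWAT calls (2) became 1204 by DESeq2, 78 by voom, 295 in the fit of all 20 libraries, 1 with upper-quartile scaling and with the filter at 1 CPM, 0 without a filter, with the replicate block, without the 4 libraries high in spermatid markers and with the epididymis covariate, and 0 to 6 with a library left out. Calls of the difference between tissues (354) became 1273 by DESeq2, 628 by voom, 0 with the replicate block, 96 without liver WT 1 and WT 3, 23 without the 4 libraries high in spermatid markers, and 70 to 729 with a library left out.

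The replicate block changed the Ccl9 difference between tissues to -2.34 (adjusted p = 0.114). This block joins the eWAT and liver libraries of a genotype that share a number, and the labels do not say whether they share an animal. Deviations of such libraries correlated from -0.125 to 0.064 in IR 4A and from -0.085 to 0.025 in WT. Between IR 4A and WT libraries with the same number, correlations ran from -0.105 to 0.094 in liver and from -0.797 to 0.637 in eWAT.

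Some estimates changed sign. Many of them were near 0 in the main fit, but those of liver Cxcl14 (log2 fold change -0.74) and liver Cxcl1 (-0.68) were not. With a library left out, the liver log2 fold changes ranged from -1.309 to 0.009 for Cxcl1, -0.50 to 0.23 for Cxcl13, -0.19 to 0.22 for Cxcr2 and -0.161 to 0.079 for Ccl25. In eWAT they ranged from -0.17 to 0.40 for Ccl5, -0.038 to 0.33 for Ccl12, -0.38 to 0.42 for Ccl27a, -0.112 to 0.076 for Ccl25, -0.36 to 0.34 for Ccl19 and -0.928 to 0.082 for Cxcl13. Without liver WT 1 and WT 3, Cxcl12 was 0.014, Cxcl14 0.24, Cxcl10 -0.26, Cxcl9 -0.16, Cxcr2 -0.067 and Cxcl13 0.24, and in the fit of all 20 libraries liver Cxcl13 was 0.018. By voom, eWAT Xcr1 was 0.10, Cxcr2 0.17, Ccl19 0.20, Ccl12 -0.22 and Ccl25 0.045, and with upper-quartile scaling Ccl25 was 0.049. Without the 4 libraries high in spermatid markers, Cxcr2 was 0.09, Ccl27a 0.07, Cxcl13 0.34 and Ccl25 0.039. With the epididymis covariate, Ccl19 was 0.45 and Ccl12 -0.06. The cause of these changes was not tested, apart from the fewer libraries in the fits that leave some out. A minimum of 0.25 or 1 CPM in place of 0.5 gave 25 or 14 members in liver and 39 or 28 in eWAT. Members near 0.5 CPM rest on few counts, so depth limits what can be detected for them.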
